A study of Mus musculus with 12 samples.

Results

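A set of 28 genes was expressed in control 4T1 cells and nearly silent in the ETV4 knockout line. The 28 were chosen by their levels in knockout and control libraries, out of 31017 gene symbols: at least 2 CPM (counts per 1000000 counts of the library) on average over the 6 control libraries, and below 0.1 CPM on average over the 6 knockout libraries. Predicted genes named Gm or Rik were dropped, as were genes whose symbols start with Col, Sema, Plxn, Eph or Efn. That removed 2 genes, Col4a6 and 1 predicted gene. The 28 are 0.263% of the 10647 symbols that reached 2 CPM in control libraries. Because the knockout and control levels chose the genes, those levels are given as a description and were not tested.

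4T1 is a mouse mammary carcinoma line. All cells were nucleofected with Cas9 and grown in gels of collagen I. The 4 groups, of 3 libraries each, were ETV4 KO, ETV4 KO + FGF, control and control + FGF. ETV4 KO cells received guide RNA against ETV4 and control cells a control guide. In the + FGF groups the medium held 40 ng/ml FGF2 with 25 ng/ml FGF10, at first in 10% serum and then for 4 days in 2% serum, the serum concentration that the labels give for the other groups too. Gels held collagen at a concentration of 1.2 mg/ml or of 2.4 mg/ml; the one used for each library is not labelled. All 6 knockout libraries carry the same tag, C39, which the labels do not explain. Whether the knockout cells were 1 clone or a pool is not stated, so a feature of that line and an effect of losing ETV4 cannot be told apart for any difference below. Nothing in the labels shows that replicates were separate cultures, so the p-values below reflect only variation among the libraries, possibly technical.

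ETV4 is a transcription factor of the ETS family, PEA3 group, that acts downstream of FGF receptor and MAP kinase signalling. A gene can be without transcript because its promoter is not activated, because its chromatin or DNA carries repressive marks, or because its DNA is lost, and counts of RNA do not separate these. In bulk libraries, fewer cells with a transcript and less transcript per cell cannot be told apart either. CpG-rich promoters, typical of broadly expressed genes, and CpG-poor promoters, typical of tissue-restricted genes, differ in how DNA methylation accompanies silencing.

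Promoter windows of both kinds occurred among the 28 genes, and 4 windows are shown because they span that range and belong to genes described below. The windows run from 250 bases before to 50 bases after the annotated start, 5′ to 3′ on the gene's strand, from RefSeq on GRCm38.p6. Capitals mark CpG dinucleotides. The Rasef window (chr4:73790553-73790852, minus strand) had 38 CpGs, 1.12 times the number that its base composition predicts. The Gpc4 window (chrX:52164874-52165173, minus strand) had 22, a ratio of 0.778. The Rasef and Gpc4 windows lie wholly inside the gene models used for coordinates. The starts of those models are 392 and 329 bases from the annotated starts used here. The Casp1 window (chr9:5298267-5298566, plus strand) had 3, a ratio of 0.195, and that of Sp110 (chr1:85598761-85599060, minus strand) had 5, a ratio of 0.22.
Rasef: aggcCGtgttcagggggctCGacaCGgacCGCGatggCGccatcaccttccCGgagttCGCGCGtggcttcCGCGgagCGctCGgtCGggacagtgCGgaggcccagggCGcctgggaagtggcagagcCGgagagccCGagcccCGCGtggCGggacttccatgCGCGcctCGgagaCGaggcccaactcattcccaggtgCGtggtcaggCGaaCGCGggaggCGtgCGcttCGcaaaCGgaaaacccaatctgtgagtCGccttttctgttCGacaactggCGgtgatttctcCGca
Gpc4: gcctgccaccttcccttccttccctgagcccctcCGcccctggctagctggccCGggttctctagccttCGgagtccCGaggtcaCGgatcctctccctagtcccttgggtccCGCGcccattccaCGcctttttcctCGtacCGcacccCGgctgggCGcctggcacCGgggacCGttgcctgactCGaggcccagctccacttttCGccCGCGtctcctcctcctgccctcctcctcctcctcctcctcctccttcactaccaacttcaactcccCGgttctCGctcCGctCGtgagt
Casp1: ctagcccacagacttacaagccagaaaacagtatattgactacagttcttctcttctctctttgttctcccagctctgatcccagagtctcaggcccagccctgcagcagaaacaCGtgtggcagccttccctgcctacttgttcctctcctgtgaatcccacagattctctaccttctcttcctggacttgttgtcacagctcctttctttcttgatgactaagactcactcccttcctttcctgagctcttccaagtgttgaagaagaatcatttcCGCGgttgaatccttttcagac
Sp110: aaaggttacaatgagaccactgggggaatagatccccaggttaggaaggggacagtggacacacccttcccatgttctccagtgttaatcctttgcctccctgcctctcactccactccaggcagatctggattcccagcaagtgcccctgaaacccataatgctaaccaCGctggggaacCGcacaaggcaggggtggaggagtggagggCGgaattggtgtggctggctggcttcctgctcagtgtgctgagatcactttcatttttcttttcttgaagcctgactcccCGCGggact

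Of the 28 genes, 23 had a window. Kif21b, Cd74, Rgs20 and Rgs14 were among those with none. In 11 of the 23, or 47.8%, the window was CpG-rich, defined as a CpG ratio of at least 0.6 with a GC share of at least 50%. The share was 75.1% of 8397 genes at 2 CPM or more in control libraries, and 42.6% of 19371 genes of the table. The median CpG ratio was 0.581 in the near-silent genes, 0.794 in the genes at 2 CPM or more and 0.523 in all genes. Level moved with this feature: the near-silent genes had a median of 3.99 CPM in control libraries, against 41.3 CPM over all genes at 2 CPM or more, and its part in the CpG share was not tested. The lowest ratios belonged to Dmd, Casp1, Sp110 and Smim22, and the highest to Rasef, Chn2 and Ranbp17. The windows were also searched on both strands for 3 motifs. CCGGAAGT, a strong ETS site, was in 0 of 23 windows, in 9.53% of those of genes at 2 CPM or more and in 5% of all. AGGAAG, a core bound by PEA3-type factors, was in 10 of 23, or 43.5%, against 31.7% and 34.6%. TGANTCA, the AP-1 site, was in 1 of 23, or 4.35%, against 4.61% and 7.36%. A match is not a binding site, and a missing match says only that the letters are not in this window. For Fam111a, the annotated start behind the window lies 27770 bases from the start of the gene model used for coordinates. That distance was 553 bases for Nox4, 392 for Rasef, 378 for Chn2, 329 for Gpc4 and 325 for Sp140. The windows of these genes lie wholly inside the gene model and do not cover its start.

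**Figure D1:**
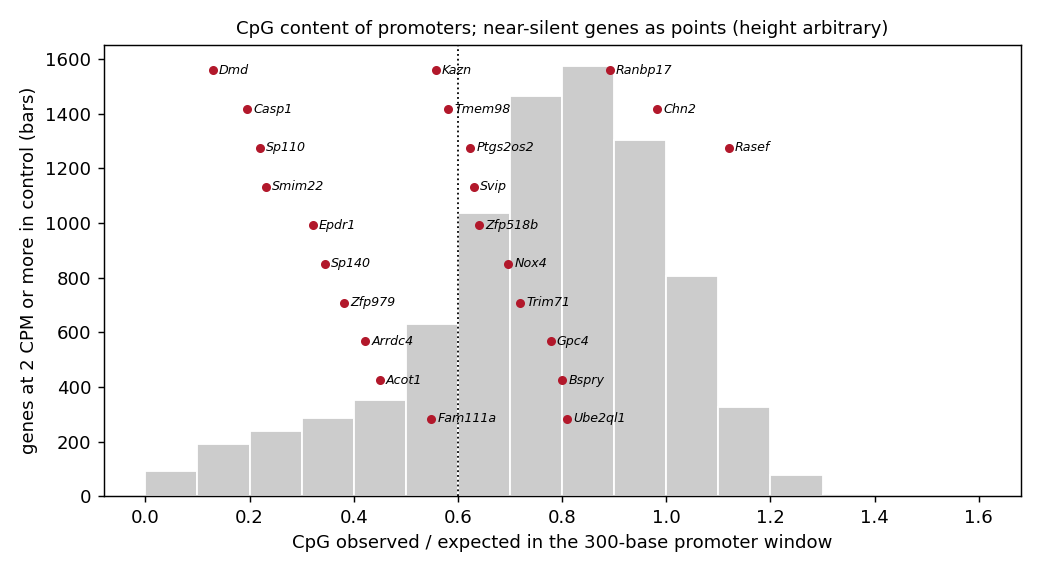
CpG observed over expected (x axis) in 300-base promoter windows; bars count the genes at 2 CPM or more in control libraries (y axis), red points mark the 23 near-silent genes with a window at arbitrary heights, and the dotted line marks 0.6. The near-silent genes run from 0.129 for Dmd to 1.12 for Rasef, with a median of 0.581.

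Library totals ran from 18229429 to 23193244 counts. Etv4 transcript stayed detectable in knockout libraries: it was at 113 to 159 CPM (scaled by the trimmed mean of M values, TMM) in the 6 knockout libraries and at 154 to 173 CPM in the 6 control libraries, so transcript level does not separate the genotypes cleanly. ETV4 KO replicate 2, the knockout library with 159 CPM, stood apart from its replicates, with a chi-square per degree of freedom of 74.3 and 73.1 against them; pairs within the other groups and the remaining pair gave 3.34 to 11.6. Markers of other cell types were low: the summed level of 5 endothelial markers was at most 0.724 TMM-scaled CPM in any library, and Adgre1 and Cd3e of 6 leukocyte markers had 0 counts throughout. The 5 fibroblast markers summed to 7.84 to 15.2 CPM in knockout and 7.95 to 12.1 CPM in control libraries; Dcn, Lum and Dpt had 0 counts, and nearly all of the sum was Pdgfra, which was higher in the knockout with FGF (log2 0.51, edgeR adjusted p = 0.0353). Its part in the results was not tested. The 6 leukocyte markers summed to 8.84 to 10.5 CPM in knockout and 5.91 to 9.81 CPM in control libraries. Nearly all of that sum was Cd68, which was higher in the knockout without FGF (log2 0.47, edgeR adjusted p = 0.0411). With FGF, Cd68 was not called (log2 0.42, edgeR adjusted p = 0.0729). The 6 epithelial markers summed to 3440 to 4880 CPM in knockout and 4170 to 4690 CPM in control libraries, as in an epithelial line. Without FGF, Krt19 (log2 1.41) and Cldn4 (0.77) of these were higher, Epcam (-0.43) and Cdh1 (-0.46) lower, and 2 not called. The 4 basal markers summed to 312 to 371 CPM in knockout and 414 to 458 CPM in control libraries. Of these, Krt5 had 0 counts throughout and Trp63 did not pass the filter on low counts. Krt14 was a minor part of the sum, at 31.8 CPM in ETV4 KO and 63.1 CPM in control libraries. It was lower without FGF (log2 -0.99) and with FGF (-1.63). The part of these differences in the results was not tested.

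The loss was close to complete. Summed over the 28 genes, the ETV4 KO libraries held 5, 9 and 13 counts and the ETV4 KO + FGF libraries 14, 15 and 19. Control libraries held 3360, 3541 and 3367 counts, and control + FGF libraries 3982, 3173 and 3469. As a share of each library this was 0.445 ± 0.178 CPM in ETV4 KO and 0.773 ± 0.14 CPM in ETV4 KO + FGF, against 171 ± 4.62 CPM in control and 169 ± 5.13 CPM in control + FGF (SD, n = 3 each). The 75 counts in knockout libraries were spread thinly: 9 genes had no count in any of the 6 libraries, 10 had 1 to 3 counts in all, and 9 had 4 or more, up to 10. The highest value of any of these genes in 1 knockout library was 6 counts, and the lowest in 1 control library was 19. No gene's knockout and control libraries overlapped, which the rule nearly fixes; over all 12079 tested genes, 18.5% had their 6 knockout libraries below their 6 control libraries. All 28 genes met both thresholds from the libraries without FGF alone, and 24 did from those with FGF alone. The other 4 were Kif21b, Nox4, Smim22 and Trim71.

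**Figure D2:**
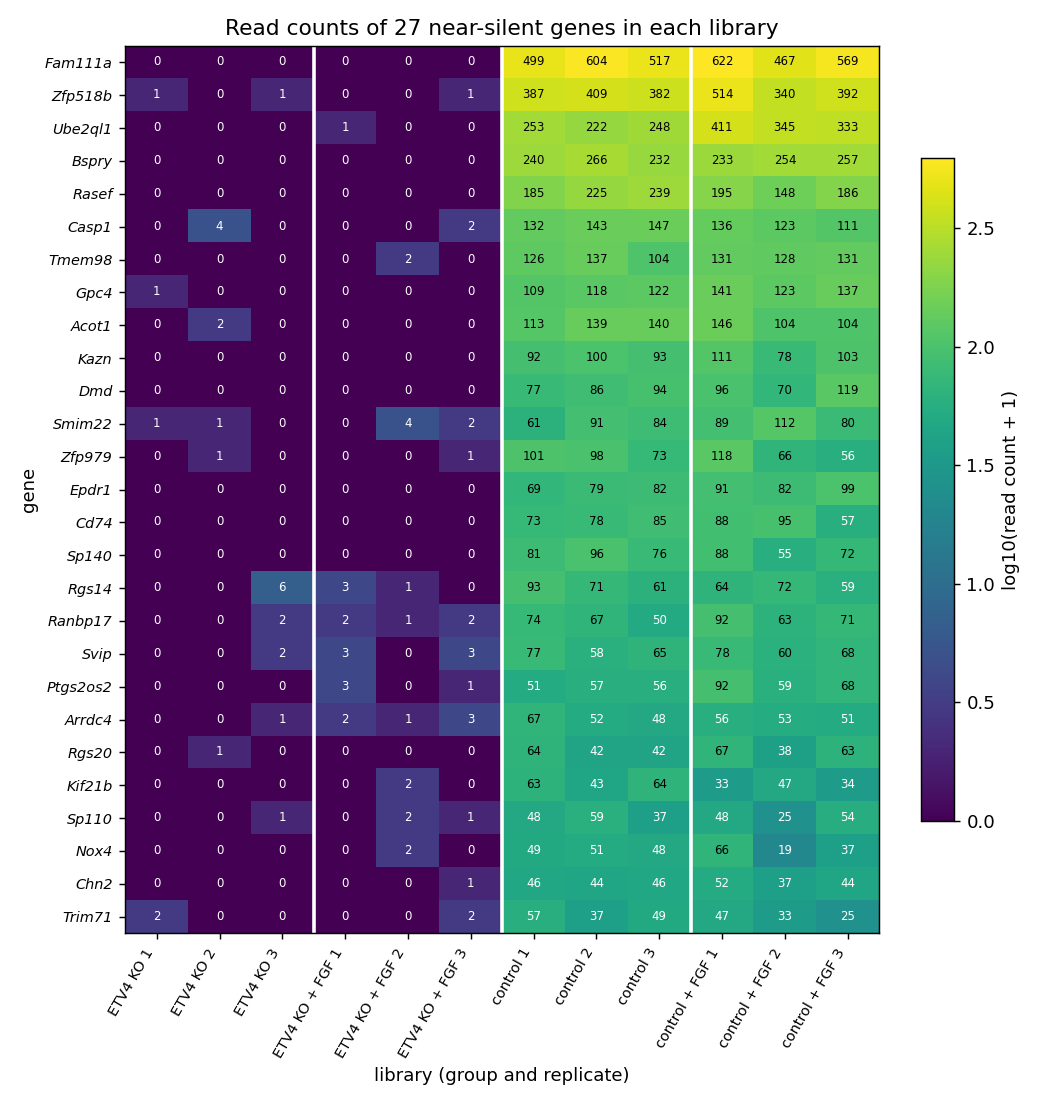
Read counts of 27 of the 28 near-silent genes (rows) in each of 12 libraries (columns), printed in each cell and coloured by log10(count + 1), with white lines between groups. The 6 knockout libraries hold 0 to 6 counts per gene and the 6 control libraries 19 to 622.

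With the genotypes exchanged, the same thresholds found 1 gene of the 10350 symbols at 2 CPM or more in knockout libraries. This was Trpv2, a cation channel (chromosome 11, 62574486 to 62600515). It had 48, 56 and 43 counts in ETV4 KO, against 0, 0 and 3 in control libraries. With FGF it had 38, 33 and 35 counts in ETV4 KO + FGF and none in control + FGF libraries. The counts of the 2 directions are a description, since the thresholds were set for the first.

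The 9 genes with no knockout count included the one with the most counts of the set in control libraries. Fam111a, a serine protease that binds the replication clamp PCNA and restricts some viruses (chromosome 19, 12545740 to 12589768), had 0 counts in all 6 knockout libraries. It had 499, 604 and 517 counts in control and 622, 467 and 569 in control + FGF libraries. Taking 3 counts over the 6 knockout libraries as the most that a count of 0 allows, control was at least 1090-fold higher. The folds and ratios of the 28 genes run control over knockout, and their limits and intervals cover counting error only.

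Bspry, a B-box and SPRY domain protein (chromosome 4, 62480053 to 62497298), was also at 0 in every knockout library. It had 240, 266 and 232 counts in control and 233, 254 and 257 in control + FGF libraries, so control was at least 493-fold higher. Rasef, a large GTPase of the Rab type with EF hands (chromosome 4, 73714579 to 73790994), had none in knockout libraries, against 185, 225 and 239 counts in control and 195, 148 and 186 in control + FGF libraries, so control was at least 392-fold higher. Both genes had 148 or more counts in every control library, far above the 3 counts over 6 libraries that a count of 0 allows.

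The other genes at 0, each with no count in any knockout library, had fewer counts in control cells. Cd74, the invariant chain of MHC class II and a receptor for the cytokine MIF, had 73, 78 and 85 counts in control and 88, 95 and 57 in control + FGF libraries. Sp140, a chromatin reader with a bromodomain of the speckled protein family (chromosome 1, 85600378 to 85645037), had 81, 96 and 76 in control and 88, 55 and 72 in control + FGF libraries. Control was at least 158-fold higher for Cd74 and at least 156-fold higher for Sp140. Epdr1, an ependymin-related secreted protein (chromosome 13, 19591706 to 19619927), had 69 to 82 counts per control library and 82 to 99 per control + FGF library, at least 167-fold above the knockout. Dmd, the dystrophin gene (X, 82948870 to 85206141), is the longest of the 28, at 2257272 bases, and had 77, 86 and 94 counts in control and 96, 70 and 119 in control + FGF libraries, at least 180-fold above. Kazn, which encodes kazrin, a protein linked to periplakin and desmosomes (chromosome 4, 142102390 to 142239401), had 92, 100 and 93 counts in control and 111, 78 and 103 in control + FGF libraries, at least 192-fold above.

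The 10 genes with 1 to 3 knockout counts were led by Zfp518b and Ube2ql1. Zfp518b, a zinc finger protein (chromosome 5, 38668484 to 38684826), had 1, 0 and 1 counts in ETV4 KO and 0, 0 and 1 in ETV4 KO + FGF libraries. It had 387, 409 and 382 counts in control and 514, 340 and 392 in control + FGF libraries, a ratio of 806 (95% counting interval 276 to 3910). Ube2ql1, related to ubiquitin-conjugating enzymes (chromosome 13, 69702832 to 69739889), had 1 count in 1 ETV4 KO + FGF library and none in the other 5 knockout libraries, against 222 to 253 counts per control library and 333 to 411 per control + FGF library, a ratio of 1810 (324 to 71400).

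Gpc4, a glypican that carries heparan sulfate chains and so can bind FGFs at the cell surface (X, 52053021 to 52165252), had 1, 0 and 0 counts in ETV4 KO and none in ETV4 KO + FGF libraries. It had 109, 118 and 122 counts in control and 141, 123 and 137 in control + FGF libraries, a ratio of 748 (134 to 29600). The only other tested glypican, Gpc1, was not called in knockout against control (log2 0.05 without FGF, SE 0.08, and 0.16 with FGF, SE 0.08). Acot1, an acyl-CoA thioesterase of the cytosol (chromosome 12, 84009490 to 84018371), had 0, 2 and 0 counts in ETV4 KO and none in ETV4 KO + FGF libraries, against 113, 139 and 140 in control and 146, 104 and 104 in control + FGF libraries. Acot1 has near copies beside it, so reads could be split between them. Tmem98, a membrane protein (chromosome 11, 80810175 to 80822033), had 2 counts in 1 ETV4 KO + FGF library and none in the other 5, against 126, 137 and 104 in control and 131, 128 and 131 in control + FGF libraries.

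The remaining 5 genes of this class had fewer control counts. Rgs20, a GTPase activator for Gα subunits, had 1 knockout count, as had Chn2, a Rac GTPase activator of the chimaerin family, and both had 37 to 67 counts in each control library. Zfp979, Kif21b and Nox4 had 2 knockout counts each. Zfp979 is a zinc finger gene in a cluster of similar genes, Kif21b is a kinesin, and Nox4 is a NADPH oxidase that makes hydrogen peroxide. Their ratios were 255, 142 and 135. Rgs20 overlaps Atp6v1h on the opposite strand, and whether reads were counted by strand is not given in the sources used here. Atp6v1h was at 72.1 CPM in ETV4 KO and 60.1 CPM in control libraries (TMM-scaled). It was called higher without FGF (log2 0.26, edgeR adjusted p = 0.00656), while Rgs20 had 1 knockout count in all.

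In 9 genes a low residue of 4 to 10 counts remained. Casp1, the caspase that matures interleukin-1β and cleaves gasdermin D (chromosome 9, 5298517 to 5307265), had 0, 4 and 0 counts in ETV4 KO and 0, 0 and 2 in ETV4 KO + FGF libraries. It had 132, 143 and 147 counts in control and 136, 123 and 111 in control + FGF libraries, a ratio of 132 (60.2 to 360). Smim22, a small membrane protein (chromosome 16, 5007288 to 5008309), had 1, 1 and 0 counts in ETV4 KO and 0, 4 and 2 in ETV4 KO + FGF libraries, against 61, 91 and 84 in control and 89, 112 and 80 in control + FGF libraries. It had the highest level per length of the set, 7.53 RPKM in control libraries (CPM per kilobase of exon). Fam111a followed at 6.46 RPKM, and Dmd, with the longest exons, was lowest at 0.186 RPKM. The median was 1.29 RPKM, against 8.66 RPKM over 10547 genes at 2 CPM or more with a gene model.

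Ptgs2os2, a noncoding RNA near the cyclooxygenase gene Ptgs2 (chromosome 1, 150159043 to 150164948), was the only member without a coding sequence. It had no count in ETV4 KO and 3, 0 and 1 in ETV4 KO + FGF libraries, against 51, 57 and 56 in control and 92, 59 and 68 in control + FGF libraries, a ratio of 95.5 (37 to 352). Sp110, a speckled protein relative of Sp140 (chromosome 1, 85576899 to 85598817), had 0, 0 and 1 counts in ETV4 KO and 0, 2 and 1 in ETV4 KO + FGF libraries, against 48, 59 and 37 in control and 48, 25 and 54 in control + FGF libraries. Ranbp17, a nuclear transport receptor, Svip, an inhibitor of degradation at the endoplasmic reticulum, Arrdc4, an α-arrestin, and Trim71, an RNA-binding regulator targeted by let-7, had ratios of 59.4, 50.6, 46.6 and 61.9.

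The genes nearest the thresholds show that the set has no sharp edge. Rgs14, a regulator of G-protein signalling, was the highest of the set in knockout libraries at 0.0769 CPM. It had 0, 0 and 6 counts in ETV4 KO and 3, 1 and 0 in ETV4 KO + FGF libraries, against 93, 71 and 61 in control and 64, 72 and 59 in control + FGF libraries. Just outside were Lhpp at 0.104, Kcnq1 at 0.108, Adgrl3 at 0.111 and Acsl6 at 0.112 CPM. Acsl6, a long-chain acyl-CoA synthetase, was at 13.1 CPM in control libraries. At the control threshold, Trim71 at 2.02, Nox4 at 2.18 and Chn2 at 2.19 CPM lay just inside. Ecscr at 1.91 CPM and Vill at 1.87 CPM lay just outside, and Vill and Fbln1 (1.66 CPM) had no count in any knockout library.

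The genes stayed nearly silent in knockout cells with FGF, as the rule requires, so the response to FGF was tested in control cells. In the edgeR quasi-likelihood test of control + FGF against control, 0 of the 28 had a Benjamini-Hochberg adjusted p under 0.05, where 0.488% of all 12079 genes tested did (0.257% higher and 0.232% lower); all 28 passed the filter on low counts. At an unadjusted p under 0.05 there was 1, and DESeq2 called 1. That gene was Ube2ql1, with 411, 345 and 333 counts in control + FGF libraries, against 253, 222 and 248 in control libraries. All 3 libraries with FGF were above all 3 without (log2 0.54, SE 0.13, edgeR adjusted p = 0.17). It was called by DESeq2 (adjusted p = 0.0197), by edgeR on the compared groups alone (adjusted p = 0.00719) and without ETV4 KO replicate 2 (edgeR adjusted p = 0.00828). The shares of all genes called in those fits are not given. Kif21b had the most negative value, log2 -0.61, and the median of the 28 was -0.02. Signs were mixed, 11 positive and 17 negative. The groups did not overlap for 3 of the 28, Ube2ql1, Ptgs2os2 and Sp140, while 18.3% of all tested genes had no overlap. In knockout cells, 16 of the 28 had any count with FGF and 13 without.

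**Figure D3:**
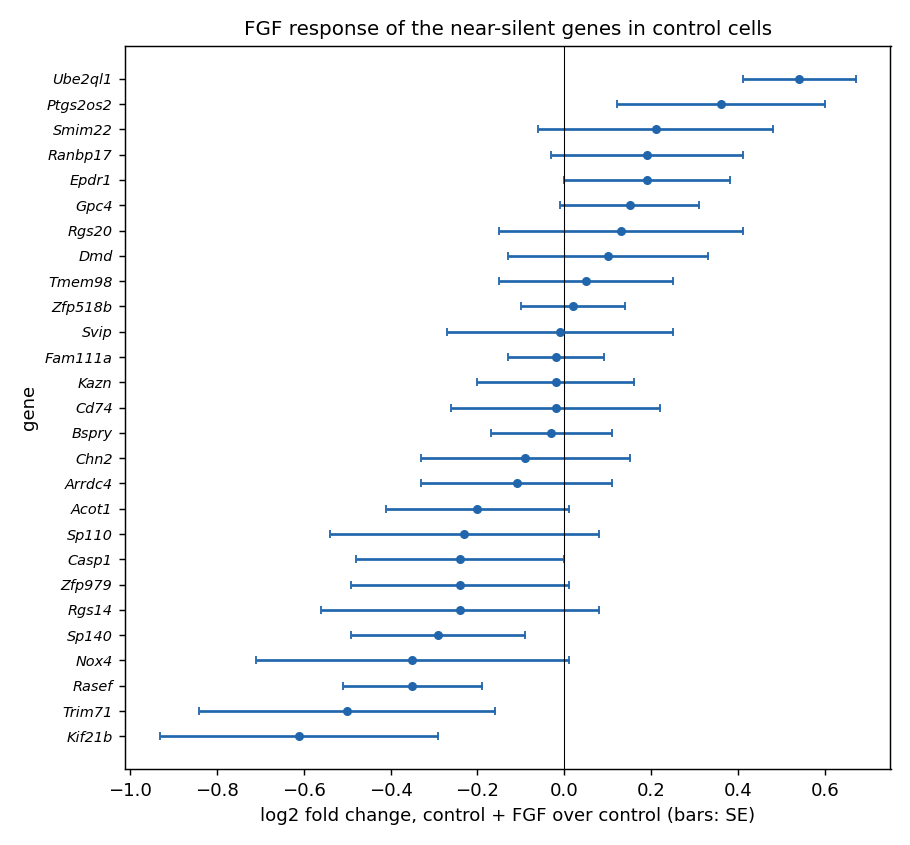
Log2 fold change of control + FGF over control (x axis, bars are SE, n = 3 libraries per group) for 27 of the 28 near-silent genes (y axis). Values run from 0.54 for Ube2ql1 to -0.61 for Kif21b and centre near 0.

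The 28 genes lay on 13 chromosomes: 5 on chromosome 1, 4 on chromosome 4, 3 each on 7, 9 and 13, 2 each on 11 and X, and 1 each on 6 others. Sp110 and Sp140 lie head to head, 1.56 kb apart, and both were lost. The next closest pair, Kazn and Zfp979, is 5372535 bases apart.

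Genes next to the near-silent genes were called at shares near those of all genes, but some of the closest had almost no transcript left. The neighbours were the tested genes nearest to each of the 28, up to 2 on each side, whatever their values, and 108 genes resulted. Without FGF, 31 were lower in ETV4 KO than in control (28.7%), 16 were higher and 61 were not called, where 45.8% of all tested genes were called, 23.3% lower and 22.5% higher. With FGF, 28 were lower (25.9%) and 16 higher, where 40.3% of all genes were called, 22.2% lower and 18% higher; without ETV4 KO replicate 2 the counts were 36 lower and 27 higher without FGF, and 41 lower and 30 higher with FGF. On the compared groups alone, 37 were lower and 29 higher with FGF. The shares of all genes called in these refits are not given, so their counts cannot be set against the shares above. Within 50 kb, a limit chosen after the data were seen, 31 neighbours remained. Of these, 16 (51.6%) were lower and 3 higher without FGF, and 15 (48.4%) were lower and 1 higher with FGF. Beyond 50 kb, 15 of 77 were lower and 13 higher without FGF. Lower by more than 2-fold in both FGF conditions were 9 of the 31 (29.0%), 5 of the 77 (6.49%) and 5.89% of all genes tested; lower in both at any size were 15 of the 31 (48.4%) and 16.8% of all genes. The median log2 fold change within 50 kb was -0.29 without FGF, against -0.01 over all genes. Adjusted p-values below are from the edgeR quasi-likelihood test on all genes.

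**Figure D4:**
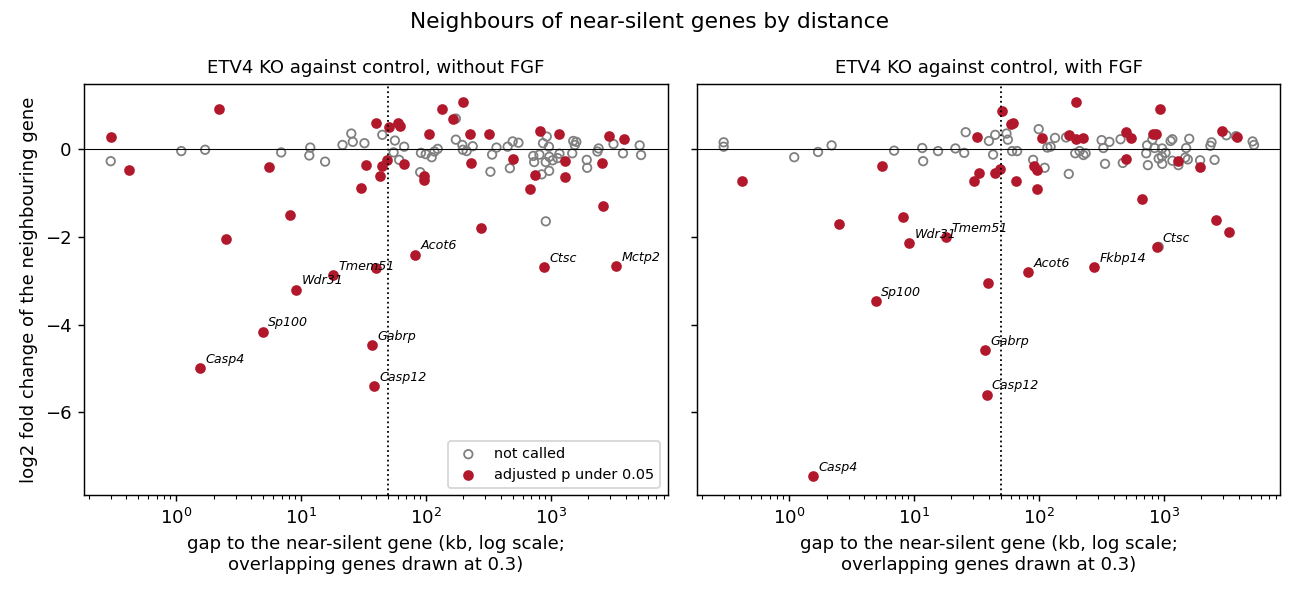
Log2 fold change of ETV4 KO over control (y axis) of each neighbouring gene against its gap to the nearest near-silent gene (x axis, kb, log scale), without FGF on the left and with FGF on the right; filled points passed the test and the dotted line marks 50 kb. Casp4, Casp12, Sp100 and Gabrp, all within 50 kb, are the lowest points in both panels.

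The inflammatory caspases beside Casp1 were lost along with it. Casp4, which senses bacterial lipopolysaccharide in the cytosol, starts 1.56 kb beyond the end of Casp1. It had 3, 0 and 0 counts in ETV4 KO, against 22, 53 and 40 in control libraries (log2 -5.00, SE 0.71, adjusted p = 0.000212). With FGF it had no count in ETV4 KO + FGF and 28, 24 and 17 counts in control + FGF libraries. Casp12, a caspase of the endoplasmic reticulum in mice, lies 38.2 kb away. It had 5, 8 and 5 counts in ETV4 KO, against 257, 310 and 277 in control libraries (log2 -5.41, SE 0.25, adjusted p = 6.18e-09). With FGF the values were 2, 7 and 3 in ETV4 KO + FGF and 263, 183 and 198 in control + FGF libraries (log2 -5.60, SE 0.28). On the other side of Casp1 the nearest tested gene, Msantd4, is 912 kb away and was not called (log2 -0.30, adjusted p = 0.0502).

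The speckled protein cluster on chromosome 1 behaved alike. Sp100, a component of PML nuclear bodies, lies 4.95 kb from Sp140. It had 6, 14 and 17 counts in ETV4 KO, against 230, 256 and 237 in control libraries (log2 -4.16, SE 0.22, adjusted p = 1.86e-08). With FGF it had 21, 17 and 20 in ETV4 KO + FGF and 289, 205 and 198 in control + FGF libraries (log2 -3.47, SE 0.21). Sp100 thus kept some counts in every knockout library, where Sp140 kept none. Reads of these related genes could be split between copies. A predicted antisense gene that overlaps Sp140 was not called, at log2 -0.28 (SE 0.28) without FGF and 0.05 (SE 0.29) with FGF. Its counts were low, with 18, 14 and 20 in ETV4 KO, against 23, 18 and 27 in control libraries.

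On chromosome 11, Gabrp, a GABA receptor subunit 37 kb from Ranbp17, had 0, 0 and 2 counts in ETV4 KO, against 21, 25 and 10 in control libraries (log2 -4.47, SE 0.75, adjusted p = 0.000375). Tlx3, a homeobox gene 8.21 kb from Ranbp17 on the other side, fell less, with 21, 40 and 33 counts in ETV4 KO, against 103, 105 and 82 in control libraries (log2 -1.50, SE 0.25, adjusted p = 0.00031).

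On chromosome 4, Tmem51, 18.1 kb from Kazn, had 24, 17 and 24 counts in ETV4 KO, against 167, 176 and 172 in control libraries (log2 -2.87, SE 0.20, adjusted p = 2.19e-07). With FGF it had 55, 65 and 36 counts in ETV4 KO + FGF and 242, 207 and 223 in control + FGF libraries (log2 -2.01, SE 0.17). The Bspry locus shows that not every gene close by was affected. Wdr31, 9.16 kb from Bspry, had 4, 4 and 3 counts in ETV4 KO, against 25, 49 and 39 in control libraries (log2 -3.21, SE 0.51, adjusted p = 0.000261). Hdhd3, only 1.71 kb from Bspry on the other side, had 88, 78 and 76 counts in ETV4 KO, against 100, 72 and 94 in control libraries (log2 -0.02, SE 0.22, adjusted p = 0.956). Its groups overlapped.

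**Figure D5:**
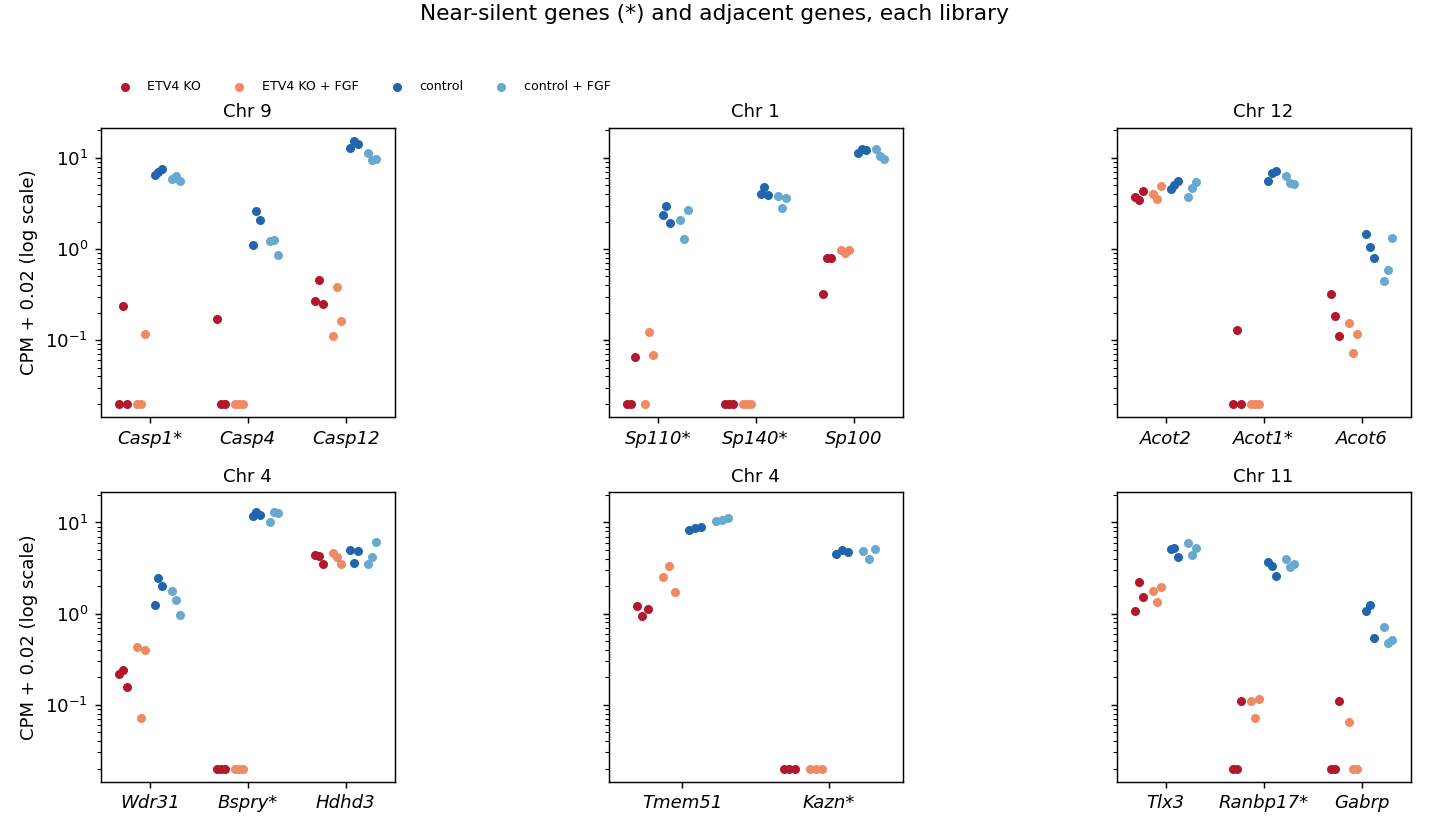
CPM by library totals + 0.02 (y axis, log scale) of near-silent genes (asterisk) and the genes next to them at 6 loci, 1 point per library, in the order ETV4 KO, ETV4 KO + FGF, control and control + FGF. Knockout points lie below control points for every gene drawn except Hdhd3 and Acot2, whose knockout and control points overlap.

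Other neighbours varied, and Tcof1 and Acot2, both within 50 kb, were not called in either condition. Tcof1, 1.10 kb from Cd74, was at log2 -0.05 without and -0.19 with FGF. Acot2, 15.6 kb from Acot1, had 74, 62 and 94 counts in ETV4 KO, against 92, 103 and 108 in control libraries (log2 -0.29, SE 0.18, adjusted p = 0.197), while Acot6, 82.3 kb away, fell to 6, 3 and 2 counts in ETV4 KO, against 29, 21 and 15 in control libraries (log2 -2.41, SE 0.54, adjusted p = 0.00286). Gas2, 2.19 kb from Svip, was higher without FGF (log2 0.91) and at 0.08 with FGF, and the difference between the conditions was not called (edgeR adjusted p = 0.262). Around Dmd, Rasef and Gpc4 the nearest tested gene was 368, 452 and 747 kb away. Tab3 beside Dmd and Kdm4c beside Rasef were not called in either condition, and Phf6 beside Gpc4 was lower without FGF (log2 -0.60, adjusted p = 0.0063) and at -0.37 (adjusted p = 0.0718) with FGF, a difference between the conditions that was not called (adjusted p = 0.627). Ptgs2, 50.8 kb from Ptgs2os2, was higher in the knockout, at log2 0.49 (SE 0.16, adjusted p = 0.0221) without and 0.86 (SE 0.16, adjusted p = 0.000769) with FGF, opposite in direction to the noncoding RNA named after it.

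Genes that share a symbol stem with a near-silent gene, here called relatives, mostly did not follow. A shared stem is a match of names and need not mean related genes. Of these relatives, 6 are also neighbours. Of 84 tested genes that share a symbol stem with a near-silent gene, 13 were lower (15.5%) and 20 higher (23.8%) without FGF, and 19 were lower (22.6%) and 13 higher (15.5%) with FGF, beside 23.3% and 22.5%, and 22.2% and 18%, of all genes. These counts depended on the libraries fitted: without ETV4 KO replicate 2 they were 22 lower and 25 higher without FGF, and 24 lower and 21 higher with FGF, and on the compared groups alone 13 lower and 9 higher, and 23 lower and 20 higher. Without control replicate 3, 13 were lower and 13 higher without FGF, and without control + FGF replicate 2, 16 were lower and 8 higher with FGF. Shares of all genes called in these refits are not given, so the refit counts cannot be set against the shares above. Lower by more than 2-fold in both conditions were 4 of the 6 relatives that are also neighbours, Acot6, Casp12 and Casp4 among them, and 3 of the other 78, Kif26b, Rgs2 and Smim1. Among 9 tested genes with the Casp stem, 5 were lower without FGF and 6 with FGF, and none was higher; 1 of them, Casp8ap2, encodes a caspase-8-associated protein and was not called. Casp9, which starts the mitochondrial death pathway, fell by 0.42 on the log2 scale without FGF (SE 0.10, edgeR adjusted p = 0.00405) and by 0.39 with FGF. Casp8 was at -0.16 (SE 0.10, edgeR adjusted p = 0.204) without FGF and at -0.48 (SE 0.10, edgeR adjusted p = 0.00145) with FGF. Of the G-protein regulators without FGF, Rgs2 fell by 2.10 (SE 0.15) and Rgs16 and Rgs7 rose by 0.92 (SE 0.10) and 2.17 (SE 0.49). With FGF the values were -1.16 for Rgs2, 0.33 for Rgs16 and 2.24 for Rgs7. Rgs7 was near the floor, with 23, 10 and 23 counts in ETV4 KO and 8, 2 and 3 in control libraries.

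For several near-silent genes the proteins they work with were examined, from lists drawn up with the members known. Changes are given as log2 fold changes of ETV4 KO over control, without FGF unless stated, and CPM values of these genes are TMM-scaled. The MHC class II molecules that Cd74 chaperones were nearly absent in both genotypes: H2-Aa, H2-Eb1 and Ciita, the class II transactivator, had 4, 3 and 8 counts over all 12 libraries, and H2-Ab1 33. Of the 3 tested genes of that list, H2-DMa was lower without FGF (-0.55, adjusted p = 0.0122) and not called with FGF (-0.27). The MIF gene was higher without FGF (0.51) and not called with FGF (0.04, adjusted p = 0.805), and its co-receptor gene Cd44 was higher in both (0.39 and 0.89). For Casp1, the inflammasome genes Pycard, Nlrc4 and Nlrp1b had 0 counts in all libraries and Nlrp3 had 38. Its substrate Il18 fell by 2.83 without FGF (SE 0.25, adjusted p = 1.57e-06) and by 2.24 with FGF (SE 0.24), to 0.831 CPM in ETV4 KO, against 5.94 CPM in control libraries. Il1b (-0.68, SE 0.45, adjusted p = 0.235) and Gsdmd (-0.20, SE 0.11, adjusted p = 0.151) were not called without FGF. With FGF, Il1b was not called (-0.54) and Gsdmd was lower (-0.32, adjusted p = 0.0352).

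Partners of dystrophin were largely present. Of 7 tested genes of that complex 2 were lower (28.6%) and 1 higher (14.3%) without FGF, where 23.3% and 22.5% of all tested genes were. Sarcospan, Sspn, fell by 0.80 (SE 0.08) and β-sarcoglycan, Sgcb, by 0.65 (SE 0.08), and the paralogue utrophin, Utrn, was not called (0.05, SE 0.20). Of 8 desmosome and envelope genes around kazrin, 6 were lower and 1 higher without FGF, and 5 were lower and 1 higher with FGF, where 23.3% of all genes were lower and 22.5% higher without FGF and 22.2% and 18% with FGF. Desmocollin 2, Dsc2, fell to 0.778 CPM in ETV4 KO, against 9.33 CPM in control libraries (log2 -3.55, SE 0.20), and envoplakin, Evpl, fell by 2.96 (SE 0.19); plakophilin 3, Pkp3, rose by 0.73 (SE 0.09), and desmoplakin, Dsp, was not called. Of the NADPH oxidase genes, Cyba, the membrane partner of Nox4, rose by 0.36 (SE 0.13, adjusted p = 0.0442) without FGF and was not called with FGF.

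Genes for heparan sulfate and FGF reception, the list that holds Gpc4, moved both ways (lower and higher in lists mean an edgeR adjusted p under 0.05): of 19 other tested genes 4 were lower (21.1%) and 6 higher (31.6%) in each condition, where 23.3% and 22.5% of all genes were without FGF and 22.2% and 18% with FGF. The receptor Fgfr1 fell by 2.96 (SE 0.18), to 1.57 CPM in ETV4 KO, against 12.2 CPM in control libraries, and the sulfatase Sulf2 rose by 1.19 (SE 0.10). In the list of DNA methylation and Polycomb genes, 11 of 21 were lower and 2 higher without FGF (52.4% and 9.52%), and 9 lower and 2 higher with FGF (42.9% and 9.52%), beside the same shares of all genes. Tet1, which oxidises methylated cytosine, fell to 0.153 CPM in ETV4 KO, against 3.70 CPM in control libraries (log2 -4.52, SE 0.36, adjusted p = 6.81e-07), and to 0.227 CPM in ETV4 KO + FGF, against 2.61 CPM in control + FGF libraries. Cbx2, a Polycomb reader, fell by 1.01 (SE 0.13), and Uhrf1, which guides maintenance methylation, rose by 0.57 (SE 0.06). DNA methylation itself was not measured. Of 21 germline genes known to be silenced by DNA methylation, 1 reached the test, Rhox5, and it was lower (log2 -1.29, SE 0.48, adjusted p = 0.0435). Rhox5 was near the floor, at 0.262 CPM in ETV4 KO and 0.644 CPM in control libraries.

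Most other lists held more lower than higher genes without FGF. Of 17 genes of MHC class I presentation 13 were lower and 2 higher in both conditions, and Nlrc5, their transactivator, fell by 3.28 (SE 0.14). Of 30 epithelial junction genes 13 were lower and 3 higher without FGF and 8 and 5 with FGF, with Cldn7 at -5.55 (SE 0.13) and Crb3 at 1.23 (SE 0.09). Of 18 cytokine and chemokine genes 10 were lower and 2 higher without FGF, and of 20 detoxification genes 11 and 5. Of 13 Wnt ligands and antagonists 6 were lower and 4 higher, of 16 homeobox and developmental factors 6 and 3, and of 13 imprinted genes 4 and 4. Among all tested genes, 23.3% were lower and 22.5% higher without FGF, and 22.2% and 18% with FGF. The epithelial junction shares with FGF, 26.7% lower and 16.7% higher, were near those of all genes.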

How the data were processed

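RNA from 12 libraries was analysed from a table of raw counts per gene symbol, deposited by the authors and not normalized. Per the labels' protocols, libraries were made from polyA RNA with a stranded kit. Per the submitters' processing notes, STAR 2.7.9a, FastQC 0.11.9, R 4.1.1 and featureCounts were used, with the builds mm10 and hg38. Strand setting, annotation release and multi-mapping were not given in the sources used here. Counts of overlapping genes and near copies are therefore uncertain.

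The members and gene lists were chosen with earlier results of these data known. CPM for the selection used library totals. Coordinates and exon lengths are from GENCODE vM21 (mm10), and promoter sequences from RefSeq (GRCm38.p6). Tests used the edgeR 4.0.16 quasi-likelihood test in R 4.3.3 with limma 3.58.1, with TMM scaling and a filterByExpr filter by group; all 12 libraries were fitted with 1 mean for each of the 4 groups, 8 residual degrees of freedom and Benjamini-Hochberg adjustment over 12079 genes at 0.05. SE is the log2 fold change divided by the square root of F. The test was checked on simulated counts. Counting intervals are 95% exact and cover counting error only.

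Genes were named by a rule: counts per library for the 15 members of highest RPKM, listed members, those called for FGF and those at the thresholds; up to 10 called neighbours and 20 relatives by adjusted p; and up to 4 genes per list. Other genes beside the named loci, and the partner lists, were chosen after values were seen. Gm and Rik genes were counted only. Relatives share the letters before the first digit; stems with more than 40 symbols were left out. Alternatives were RLE scaling, DESeq2 1.42.0, no filter, the compared groups alone, a replicate block, other thresholds and leaving out each library. A member, with its locus, and some other genes are not reported by name here.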

Additional observations from a re-analysis of the deposited data

How the results depend on the processing

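The number of near-silent genes depended on the thresholds: 47 at a knockout limit of 0.2 CPM, 86 at 0.5, 62 at a control limit of 1 CPM and 9 at 5. Leaving out 1 library gave 27 to 31. For FGF in control cells, 1 of the 28 was called by DESeq2 and 1 with the compared groups alone, and leaving out 1 library gave 0 to 1, the 1 being without ETV4 KO replicate 2. Calls among neighbours ranged from 40 to 63 without FGF and from 36 to 71 with FGF when 1 library was left out, 71 being without ETV4 KO replicate 2; within 50 kb they ranged from 16 to 21 and from 15 to 19. Calls among relatives ranged from 26 to 47 and from 24 to 45. The causes were not tested, and the shares of all genes called in the alternative fits, here and below, are not given.

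Same-numbered libraries did not deviate together (correlations from -0.0874 to 0.06), so replicate numbers were not taken as pairs. With a replicate block, 52 neighbours were called without and 47 with FGF, 35 and 33 relatives, and 0 of the 28 genes for FGF, and within 50 kb 19 and 16 neighbours.

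Of 968 alternative values for 57 results on 36 named genes, 964 kept direction and side of the threshold, and 0 reversed. The 3 stronger ones were Ube2ql1 with FGF, and Kif13a with FGF missed without control + FGF replicate 2 (edgeR adjusted p = 0.0505). Depth limits the genes at 0 to the stated lower bounds.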
